A study of Mus musculus with 10 samples.

Results

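Chemokine ligands are secreted or membrane-tethered proteins that attract leukocytes, and endothelial cells are among their sources in skin. Transcripts of 10 ligand genes (*Ccl2*, *Ccl5*, *Ccl7*, *Ccl21a*, *Cxcl1*, *Cxcl9*, *Cxcl10*, *Cxcl12*, *Cxcl16* and *Cx3cl1*), chosen by name out of 46517 genes in the count tables, were followed here in single endothelial cells of mouse ear skin. Cells from 5 mutant mice (strain Pik3caH1047R;Cdh5-CreERT2, genotype Cre+) and 2 control mice were analysed. The mutant mice received 4-hydroxytamoxifen (4-OHT) on the ears at the age of 3 wk and were analysed at 5 wk, 2 wk later. Control 1 was an untreated C57BL/6J mouse of 5 wk, and control 2 was a Cre- mouse of the mutant strain that received 4-OHT at 3 wk and was also 5 wk old. The *Cdh5* promoter drives the recombinase in blood and lymphatic endothelium alike, the transgene transcript was not analysed here, so that recombined cells were not told apart from others, and the untreated control lacks the agent as well as the allele. Another control mouse was not analysed here.

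A chemokine is named by its conserved cysteines: adjacent in the CC ligands, separated by a single residue in the CXC ligands and by 3 residues in fractalkine, the product of *Cx3cl1*. Inflammatory ligands such as CCL2 and CCL7, which draw monocytes through the receptor CCR2, are switched on by cytokine and stress signals, whereas homeostatic ligands are made constantly. Among the homeostatic ligands, CCL21 from lymphatic endothelium guides CCR7-bearing dendritic cells into lymphatic vessels, and CXCL12 retains CXCR4-bearing cells and shapes arteries.

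The coding sequence around the conserved cysteines is shown for 5 ligands on which the results turn, since this stretch defines the 3 classes. Each line is read 5′ to 3′ on the coding strand from the reference transcripts (GENCODE vM21, build GRCm38), and the capitals mark the codons of the first pair of conserved cysteines.
Ccl2: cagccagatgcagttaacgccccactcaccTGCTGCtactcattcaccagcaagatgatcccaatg
Ccl7: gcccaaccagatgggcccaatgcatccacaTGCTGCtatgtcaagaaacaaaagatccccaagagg
Ccl21a: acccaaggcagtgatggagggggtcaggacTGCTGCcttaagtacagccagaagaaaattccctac
Cxcl12: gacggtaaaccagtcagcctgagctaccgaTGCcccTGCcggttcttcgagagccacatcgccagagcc
Cx3cl1: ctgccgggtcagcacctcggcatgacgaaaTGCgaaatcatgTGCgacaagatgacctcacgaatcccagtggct
All 5 pairs lie in exon 2. The pair of *Ccl2* (ENSMUSG00000035385) is at chr11:82036506-82036511 on the + strand and that of *Ccl7* (ENSMUSG00000035373) at chr11:82046538-82046543 on the + strand, so these genes are neighbours. The pair of *Ccl21a* (ENSMUSG00000094686) is at chr4:42773735-42773740 on the - strand, that of *Cxcl12* (ENSMUSG00000061353) at chr6:117171508-117171516 on the + strand, and that of *Cx3cl1* (ENSMUSG00000031778) at chr8:94778051-94778065 on the + strand. The *Ccl2* and *Ccl7* windows shared 27 of 66 bases and no 50-base stretch of either transcript occurred in another gene. By contrast, 71.6% of the 50-base stretches of the *Ccl21a* transcript also occurred in near-identical copies, so that its counts are uncertain between copies.

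The 9 plates held 99738886 to 151102969 reads each, and 3248 of 3456 wells passed the filters. A cell was called an LEC where *Prox1*, *Flt4* and *Mmrn1* summed to at least 300 CPM (read counts scaled to the reads of the cell) and exceeded *Flt1*, *Emcn* and *Podxl*, and a BEC in the reverse case. The labels describe the cells as sorted LECs, whereas the study's methods describe a sort of both LECs and BECs. By this rule 1641 cells were LECs and 1490 were BECs, and 117 fell in neither class. Markers outside the rule separated the classes, with *Lyve1*, *Pdpn*, *Reln*, *Nrp2* and *Cldn5* summing to 5749 to 6782 CPM in LECs and 919 to 1474 CPM in BECs. Immune markers stayed at 6.28 to 53.5 CPM in both classes, with *Ptprc* at 0.322 CPM or less. The genotypes differed in other ways too. Fibroblast markers summed to 575 to 790 CPM in control BECs and 12.8 to 43.4 CPM in mutant BECs, the dissociation-response genes to 3105 to 3135 CPM and 823 to 1905 CPM, and the cell-cycle genes in LECs to 54.8 to 80.0 CPM in controls and 388 to 673 CPM in mutants. Mutant mice 1 to 4 came from 5 plates of a lower number series, whereas mutant 5 and both controls came from a higher series, so that genotype and plate series can be told apart only through mutant 5.

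Reads were summed over the cells of a class in each mouse, and a level is given in CPM of that sum. Levels of different genes were compared only per kilobase of exon. The exon length of *Cxcl12* is 8176 bases while its reference transcript has 3132, whereas both are 801 for *Ccl7*. The place of *Cxcl12* in the order thus depends on this choice of length. On that scale *Ccl21a* led in LECs (945 ± 190 CPM per kb, SD, n = 7 mice), and its lowest mouse, at 544, lay above the highest mouse of every other ligand. *Ccl2* followed with 52.4 ± 45.5 CPM per kb, then *Ccl7* with 17.7 ± 12 and *Cxcl12* with 9.81 ± 8.21, and the ranges of these neighbours overlapped. In BECs, *Cxcl12* led with 261 ± 127 CPM per kb and was above *Ccl21a*, the next in order with 132 ± 97.1, in 6 of 7 mice. The *Ccl21a* level in BECs was close to that of cells in neither class from the same mice, and is not read as expression. *Cx3cl1*, at 33.1 ± 4.66 CPM per kb, had the smallest relative spread of the 10 ligands in BECs and did not overlap its neighbours in the order. *Cxcl16* (13.5 ± 5.90) and *Ccl2* (10.1 ± 10.9) overlapped each other, and *Cxcl1*, *Ccl7*, *Cxcl10*, *Cxcl9* and *Ccl5* stayed at means of 4.62 CPM per kb or less.

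**Figure D1:**
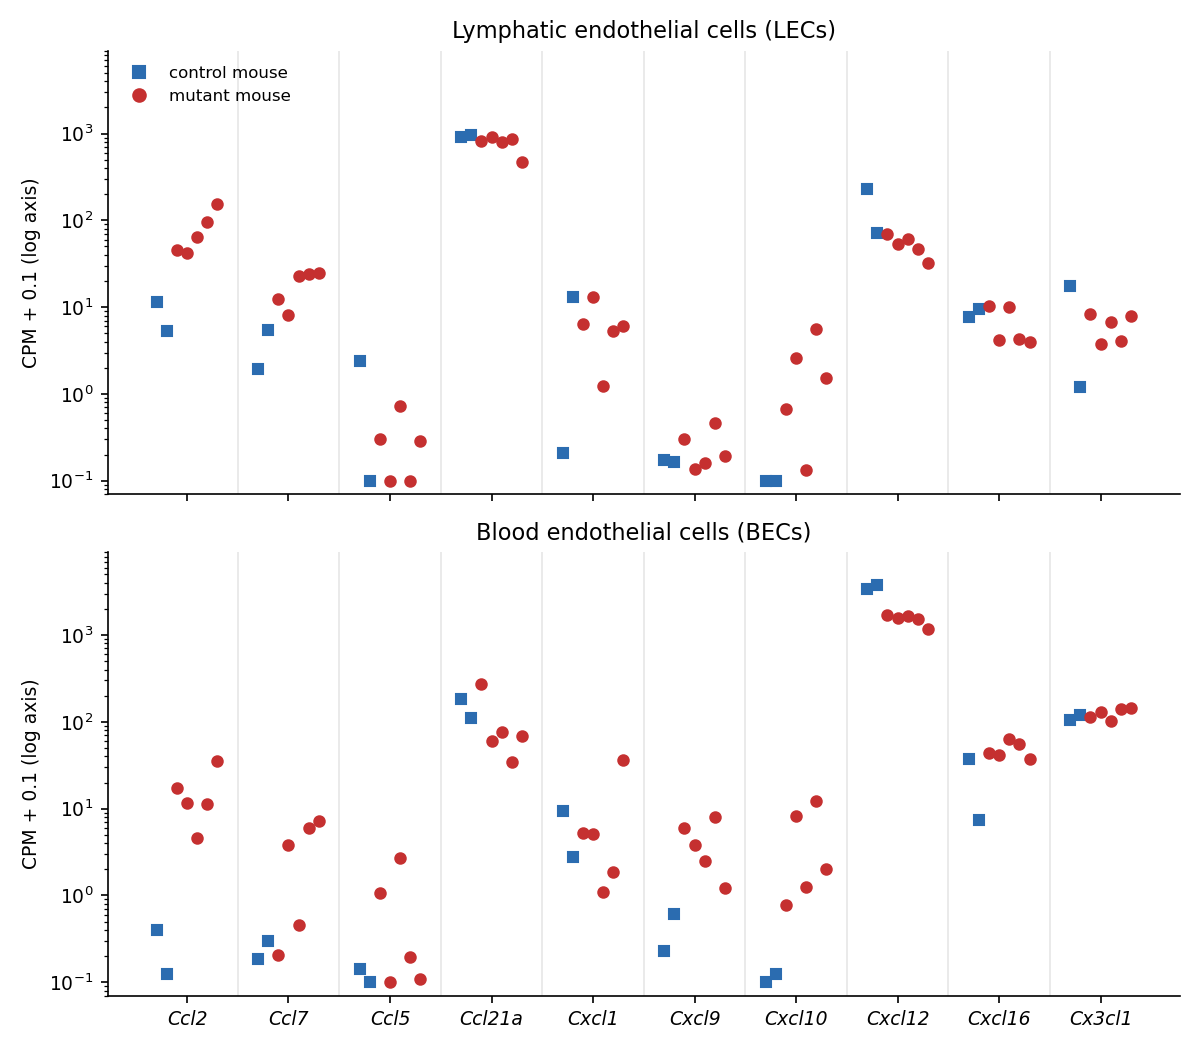
Level of each ligand in LECs (top) and BECs (bottom), as CPM + 0.1 on a log axis. Each point is 1 mouse (blue squares, 2 controls; red circles, 5 mutants, in the order mutant 1 to 5). *Ccl2* of the mutants lies above the controls in both classes, and *Cxcl12* in BECs lies below them.

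Of the 9 ligands tested between LECs and BECs within mice, 3 were higher in LECs (*Ccl2*, *Ccl7* and *Ccl21a*) and 4 were higher in BECs (*Cxcl12*, *Cx3cl1*, *Cxcl16* and *Cxcl9*) by edgeR's quasi-likelihood test at an adjusted p under 0.05. Of all genes tested, 13.2% were called higher and 12.7% lower in LECs. Between genotypes, 1 of 10 ligands rose in mutant LECs (*Ccl2*) in comparison with 1.96% of all genes, and none fell in comparison with 0.805%. In BECs, 1 of 10 rose (*Ccl2*, 1.51% of all genes) and 1 fell (*Cxcl12*, 0.611% of all genes). The ligands were chosen with earlier results of these data known, and the study had reported *Ccl2* and *Ccl7* as upregulated in mutant *Ptx3*-positive LECs. These counts beside the shares of all genes are therefore descriptions. The median log2 fold change over the ligands was -0.098 in LECs and 2.46 in BECs, and that over all genes was -0.0073 and 0.0078. The ligands above the BEC median included *Ccl2*, *Ccl7*, *Ccl5* and *Cxcl10*, with 15, 12, 2 and 1 reads in control BECs. The BEC median is therefore not read as a rise of the list. The test of whether the mutant effect differed between LECs and BECs called 0 of 10 ligands, against 0.0319% of all genes higher and 0.155% lower. An unadjusted p under 0.05 (edgeR) was reached by 3 of the ligands and by 2527 of all 21927 genes. DESeq2, which called more genes in all (closing section), called 2 of the ligands. The mutant and control mice are the same in both classes, and the comparisons of mutant with control share the 2 control mice. Whether the differences in fibroblast, dissociation-response and cell-cycle genes had a part in any result was not tested, beyond the fits that left cells out.

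*Ccl2* encodes the main monocyte attractant of the CCR2 pathway. In LECs it measured 11.4 CPM in control 1 and 5.19 CPM in control 2, and 45.6, 41.5, 63.7, 95.7 and 154 CPM in mutant mice 1 to 5. All mutant mice lay above both controls, and mutant 5 was the highest. The log2 fold change was 3.30 ± 0.67 (SE, adjusted p = 0.0439, edgeR). The control reads came from very few cells, as a single cell held 68.2% of them in control 1 and 80.5% in control 2, whereas the top cell of mutant 5 held 3.62%. In cells thinned to 50000 reads, a *Ccl2* read was found in 2.19% and 1.14% of control LECs and in 19.6%, 17.6%, 21.5%, 22.5% and 54.0% of mutant LECs. Pooled over mice this is 6 of 358 control and 386 of 1283 mutant LECs. The mean difference was 25.4 percentage points, and its exact two-sided permutation p of 0.0952 is the smallest that 5 mice against 2 can give. Without thinning the shares were 12.6% and 2.86% in controls and 25.1% to 88.3% in mutants. Within the higher plate series, mutant 5 had 18.6 times the mean control level, and the fit with plate series as a block gave a log2 fold change of 4.24 (adjusted p = 0.0365). The call held in 7 of 16 alternatives, with log2 fold changes of 2.52 to 5.95 and adjusted p values of 2.12e-08 to 0.166. It was lost on leaving out either control (0.0802 without control 1 and 0.13 without control 2) or any of mutants 1 to 4 (0.0523 to 0.0872), in thinned cells (0.0592), on leaving out cycling cells (0.131) and with replicate number as a block (0.166). LECs that carried markers of fibroblasts, mural, immune or epidermal cells had more *Ccl2* than the other LECs in 7 of 7 mice, at 17.5 and 12.02 CPM in comparison with 0.253 and 1.55 CPM in the controls. In mutant mice 1 to 5 they had 93.3, 43.0, 77.9, 184 and 200.1 CPM, in comparison with 24.2, 41.1, 59.7, 41.5 and 132 CPM in the other LECs. Without the cells carrying these markers the log2 fold change was 5.95 (adjusted p = 0.0277, edgeR).

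In BECs, *Ccl2* measured 0.304 and 0.0244 CPM in the controls and 17.4, 11.7, 4.53, 11.2 and 35.6 CPM in the mutants. The groups did not overlap, and the log2 fold change was 6.62 ± 1.27 (SE, adjusted p = 0.0399, edgeR) on 15 control reads in all. Few cells carried these reads, since the top cell held 23.3% to 73.9% of them in a mutant mouse. The share of thinned BECs with a read was 2.52% and 0% in controls and 8.20%, 6.52%, 3.94%, 5.75% and 22.8% in mutants, and 0 of 157 cells in control 2 allows a share of up to 1.91%. Among the few cells in neither class, a read was found in 0 of 7, 1 of 3, 2 of 20, 1 of 15 and 8 of 22 cells of mutant mice 1 to 5. In 4 of 5 mutants this share was above that of the BECs, so the BEC shares there are not read as more than background. The cells in neither class also carried mural markers (864 to 9509 CPM in mutants), so they are no clean measure of that background. The levels in these cells were 0.702 to 9.32 CPM, below the BECs of the same mouse in 4 of 5 mutants. The call was lost without either control (adjusted p 0.0578 and 0.118), without any of mutants 1 to 4 (0.0508 to 0.0805), in thinned cells (0.0766), with plate series as a block (0.0789), with replicate number as a block (0.22) and under a stricter rule for the class (0.11), and held in 5 of 15 alternatives. Within mice *Ccl2* was higher in LECs than in BECs in 7 of 7 mice (log2 difference 3.09 ± 0.59, adjusted p = 0.00429, edgeR). This call was lost in control mice alone (6.19, adjusted p = 0.12) and with no block for the mouse (2.33, adjusted p = 0.108). The share of cells with a read was higher in LECs in 6 of 7 mice, by 12.7 percentage points on average (exact sign-flip p = 0.0312, two-sided, 1 of 10 ligands tested), which rose to 0.0625 on leaving out any mouse but control 1. The mutant effect was smaller in LECs than in BECs by a log2 difference of 3.44 ± 0.88 that failed the correction (adjusted p = 0.186, range 0.0011 to 0.345 over 8 alternatives).

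**Figure D2:**
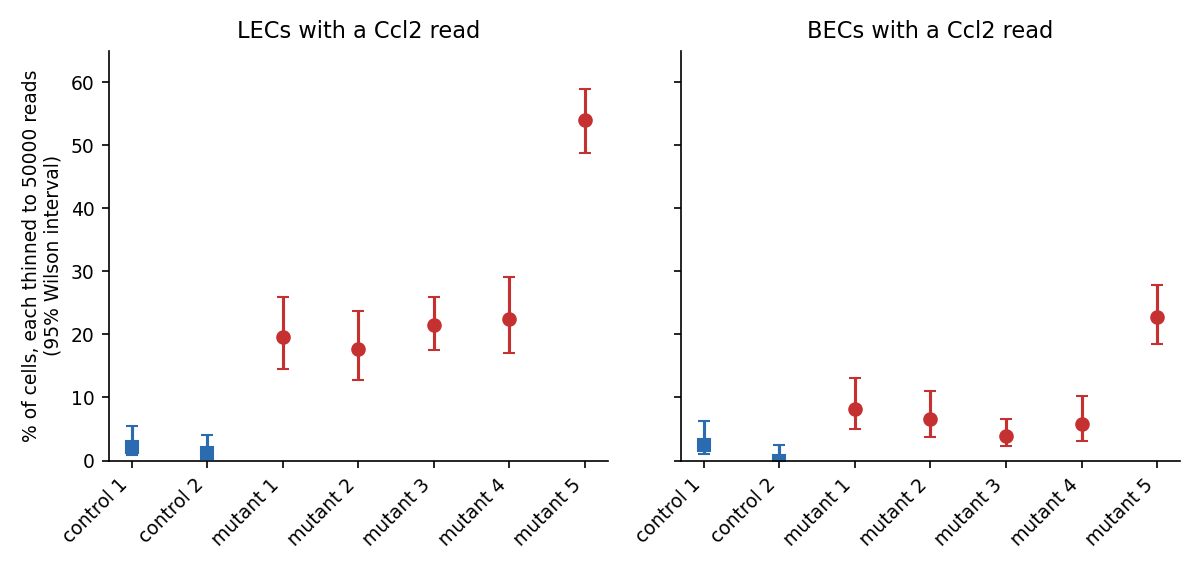
Share of LECs (left) and BECs (right) with a *Ccl2* read, in percent of cells thinned to 50000 reads, for each mouse, with its 95% Wilson interval (blue, controls; red, mutants). Mutant LECs lie between 17.6% and 54.0% and control LECs at 2.19% or less, and the intervals cover counting error only.

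*Ccl7* encodes a related monocyte attractant. Its LEC levels were 1.82 and 5.41 CPM in the controls and 12.2, 8.02, 22.9, 24.3 and 24.4 CPM in the mutants. The groups did not overlap, but the log2 fold change of 2.42 ± 0.64 missed the threshold (adjusted p = 0.0856, edgeR). A read was found in 1.64% and 3.43% of thinned control LECs and in 4.81% to 17.2% of mutant LECs. In BECs the level was at most 7.04 CPM, in mutant 5, and the top cell held 25.0% to 95.8% of the reads of a mutant mouse. Within mice *Ccl7* was higher in LECs (log2 difference 3.69 ± 0.83, adjusted p = 0.0102, edgeR). This call was lost in mutant mice alone (0.0587) and without cells carrying markers of other cell types (0.156). It was also lost in control mice alone and with no block for the mouse, and adjusted p values reached 0.174 over 16 alternatives.

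*Ccl21a* encodes the lymphatic ligand of CCR7. In LECs it measured 919.6 and 971 CPM in the controls and 829, 907, 792, 864 and 473 CPM in the mutants, with a read in at least 99.4% of thinned cells in every mouse. Each mutant mouse was below both controls, most of all mutant 5, but the log2 fold change of -0.24 ± 0.23 did not pass the test (adjusted p = 0.593, edgeR). With plate series as a block it was -0.96 (adjusted p = 0.0373), a value that rests on mutant 5. BECs gave 184 and 110.2 CPM in controls and 272, 60.6, 76.3, 34.3 and 67.8 CPM in mutants. Cells in neither class gave nearly the same values in the same mice, 195 and 113 CPM in controls and 283, 61.6, 81.7, 39.5 and 79.5 CPM in mutants. The BEC levels were thus close to those of cells in neither class and are not read as expression. Those cells are no clean measure of background, and whether the BEC reads are expression or background was not tested. The LEC to BEC log2 difference was 3.08 ± 0.35 (adjusted p = 0.000184, edgeR). Of the near-identical copies *Gm21541* held 39276 reads in LECs against 452689 for *Ccl21a*, and *Ccl21b*, *Gm13304* and *Gm10591* held 0.

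*Cxcl12* encodes the ligand of CXCR4. Its BEC levels were 3424 and 3815 CPM in the controls and 1720.5, 1581, 1655, 1549 and 1179 CPM in the mutants. All mutants lay below both controls, at a log2 fold change of -1.17 with an SE of 0.15 (adjusted p = 0.0105, edgeR). The call held in 13 of 15 alternatives, and was lost without control 2 (adjusted p = 0.0564) and with replicate number as a block (0.215), within a range of 1.52e-07 to 0.215. Without the cells that carried markers of fibroblasts, mural, immune or epidermal cells the fold change was -1.50 (adjusted p = 0.00725), and with plate series as a block it was -1.59 (adjusted p = 0.0304). Nearly all BECs expressed the gene, as 89.1% to 97.3% of thinned mutant cells and 100% of control cells had a read. In LECs the levels were far lower, at 229 and 70.9 CPM in controls and 69.6, 52.7, 60.3, 46.6 and 32.1 CPM in mutants. Cells in neither class gave 758 to 815 CPM in controls and 245 to 1984 CPM in mutants, above the LECs. Whether the LEC reads are expression or background of the plates was not tested. The LEC fold change (-1.50 ± 0.42, adjusted p = 0.097, edgeR) missed the threshold and was -0.32 without control 1 (adjusted p = 0.65) and -2.13 without control 2 (adjusted p = 0.0314). The BEC excess over LECs was large in 7 of 7 mice (log2 difference of LECs to BECs -4.92 ± 0.22, adjusted p = 1.68e-06, edgeR), and the difference of the mutant effect between LECs and BECs was -0.13 ± 0.44 (adjusted p = 0.983).

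*Cx3cl1* encodes fractalkine, which captures monocytes and T cells on the vessel wall. BECs gave 105 and 120 CPM in controls and 115, 129, 102, 142 and 146 CPM in mutants, which overlapped (log2 fold change 0.23 ± 0.18, adjusted p = 0.503, edgeR). The share of thinned BECs with a read was 9.99 percentage points higher in mutants (exact permutation p = 0.0952, the smallest possible, among 10 ligands tested). LECs gave 17.3 and 1.11 CPM in controls and 3.70 to 8.16 CPM in mutants, and the LEC to BEC log2 difference was -4.51 ± 0.47 (adjusted p = 0.000114, edgeR), a call that was lost in control mice alone (-4.62, adjusted p = 0.175). *Cxcl16*, another membrane-tethered ligand, measured 37.7 and 7.29 CPM in control BECs and 43.7, 41.1, 64.1, 55.0 and 36.9 CPM in mutant BECs. Control 1 lay within the mutant range and control 2 below it, and the log2 fold change of 1.15 ± 0.56 was not called (adjusted p = 0.299, edgeR). In LECs *Cxcl16* was at 3.89 to 10.1 CPM in all mice (log2 difference to BECs -2.54 ± 0.47, adjusted p = 0.00331, edgeR), and in control mice alone this difference was -0.99 (adjusted p = 0.678). Exons of *Cxcl16* overlap *Zmynd15* on the opposite strand. Since the strand setting of the counting is not given in the sources used here, reads of the overlap cannot be assigned.

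*Cxcl9* and *Cxcl10* encode interferon-induced ligands of CXCR3 and draw activated T cells. In BECs, *Cxcl9* measured 0.13 and 0.512 CPM in controls and 5.86, 3.74, 2.38, 7.94 and 1.12 CPM in mutants. The groups did not overlap, but the top cell held 50.7% to 98.2% of the reads of a mutant mouse, and the log2 fold change of 3.77 ± 1.11 was not called (adjusted p = 0.123, edgeR). LECs stayed at 0.357 CPM or less (log2 difference to BECs -4.21 ± 0.74, adjusted p = 0.00256, edgeR). *Cxcl10* had 0 reads in the control LECs and 781 in the mutant LECs, at least 61.8-fold higher per read sequenced when 3 reads over the group are taken as the floor. Its mutant LEC levels were 0.573, 2.52, 0.0333, 5.52 and 1.41 CPM, and the top cell held 74.3% to 97.3% of a mouse's reads. Mutant BECs gave 0.677, 8.22, 1.16, 12.2 and 1.91 CPM on 1462 reads, against 1 read in control BECs, a ratio of 374 with a counting interval of 67.1 to 14794. That interval counts pooled reads and leaves out the spread between cells and mice. Few cells carried the reads, since 20 of 1174 thinned mutant BECs had one. Neither comparison of *Cxcl10* passed the correction (adjusted p = 0.103 in LECs and 0.0742 in BECs, edgeR), and 0 of 183 and 0 of 175 thinned control LECs allow shares of up to 1.64% and 1.71%.

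The RefSeq promoters of this pair (300 bases around the transcript start, GRCm38.p6) are shown because both hold letters of 2 motifs named for inflammatory transcription factors. Capitals mark the kappa-B motif GGGNNTTCC and the interferon-response motif GAAANNGAA, searched on both strands. *Cxcl9* (chr5:92328030-92328329, - strand) held the first motif at -130 and -42 from the start and the second at -175, and *Cxcl10* (chr5:92348840-92349139, - strand) held 1 of each, at -103 and -213.
Cxcl9: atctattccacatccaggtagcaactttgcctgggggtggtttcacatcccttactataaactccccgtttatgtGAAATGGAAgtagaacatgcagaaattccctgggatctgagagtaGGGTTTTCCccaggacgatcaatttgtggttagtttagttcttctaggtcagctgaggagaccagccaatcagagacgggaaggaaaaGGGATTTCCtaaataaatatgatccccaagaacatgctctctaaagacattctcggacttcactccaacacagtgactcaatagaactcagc
Cxcl10: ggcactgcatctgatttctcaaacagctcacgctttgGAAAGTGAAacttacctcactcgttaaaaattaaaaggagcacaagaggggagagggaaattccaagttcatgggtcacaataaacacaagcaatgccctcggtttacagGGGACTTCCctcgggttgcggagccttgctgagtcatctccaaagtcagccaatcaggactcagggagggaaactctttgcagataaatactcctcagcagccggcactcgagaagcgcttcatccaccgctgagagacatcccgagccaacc
Of 32544 promoters of this length, 5.85% held the kappa-B letters and 8.53% the interferon-response letters. The windows of *Ccl21a*, *Cxcl12*, *Cx3cl1* and *Cxcl1* held neither set of letters, and those of *Ccl2*, *Ccl5*, *Ccl7* and *Cxcl16* were not searched. Forms of the motifs with other letters or spacing were not searched in any window, so a window without these letters is not shown to lack a site.

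*Cxcl1*, a neutrophil attractant, had scattered levels. LECs gave 0.107 and 12.9 CPM in controls and 1.14 to 13.1 CPM in mutants, and a single cell held 97.0% of the reads in control 2. The share of thinned LECs with a read was 3.62 percentage points higher in mutants (exact permutation p = 0.0952, the smallest possible, among 10 ligands tested). In BECs this share differed by 0.708 points (exact permutation p = 0.857). BECs gave 9.21 and 2.71 CPM in controls and 5.08, 4.99, 0.985, 1.75 and 35.9 CPM in mutants, of which mutant 5 had a read in 10.6% of thinned cells and the other mutants in at most 2.17%. *Ccl5*, which attracts T cells and monocytes, was at or near 0 in both classes, with at most 2.58 CPM in BECs, in mutant 3, and 2.31 CPM in LECs, in control 1, where single cells held 95.1% and 96.9% of the reads.

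LECs with at least 100 CPM of *Ptx3*, which encodes a long pentraxin and marks a subset of LECs in the study, were compared with the other LECs of the same mouse. There were 12 and 44 such cells in the controls and 62, 62, 126, 76 and 162 in the mutants, and 119 of all 1641 LECs lay near the limit, at 50 to 200 CPM. The contrast within mice called 0 of 7 ligands tested, also by DESeq2, against 1.16% of all genes higher and 1.57% lower in Ptx3 LECs by edgeR. An unadjusted p under 0.05 (edgeR) was reached by 1 of the ligands (*Ccl21a*) and by 2487 of all 15750 genes. *Ccl2* measured 0.244 and 18.7 CPM in control Ptx3 LECs and 34.5, 71.5, 64.7, 142 and 139 CPM in mutant Ptx3 LECs. In the other LECs it measured 12.3 and 0.0676 CPM in controls and 52.3, 25.4, 63.2, 50.9 and 169 CPM in mutants, so that the order of the 2 classes differed between mice (log2 difference 0.53 ± 0.97, adjusted p = 0.849, edgeR). The share of thinned cells with a *Ccl2* read was 0% and 4.55% in control Ptx3 LECs and 20.97%, 35.5%, 34.9%, 32.9% and 53.7% in mutant ones, in comparison with 2.34% and 0%, and with 18.9%, 8.80%, 14.3%, 15.1% and 54.1%, in the other LECs. Control 2 and mutants 1 to 4 had higher shares in Ptx3 LECs, control 1 and mutant 5 lower ones. The mean difference of 9.85 percentage points missed the threshold (exact sign-flip p = 0.0938, two-sided, where the smallest possible is 0.0156). It passed when 2 reads were needed (p = 0.0312, exact) and in cells thinned to 100000 reads (p = 0.0469, exact), and ranged up to 0.188 with a mouse left out. *Ccl7* differed by a log2 of 0.10 ± 0.66 (adjusted p = 0.963, edgeR) and *Cxcl12* by -0.20 ± 0.24 (adjusted p = 0.761, edgeR). *Ccl21a* measured 1019 and 1008 CPM in control and 493 to 995.7 CPM in mutant Ptx3 LECs, and 912 and 957 CPM in control and 454 to 891 CPM in mutant other LECs (adjusted p = 0.301, edgeR).

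**Figure D3:**
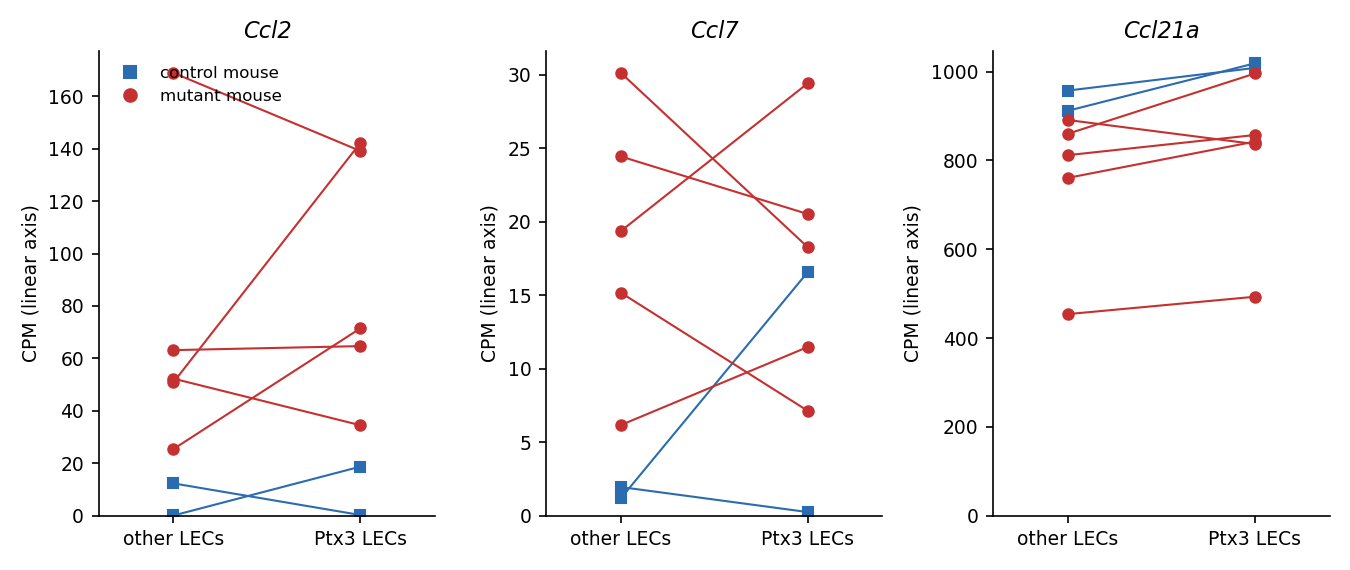
CPM (linear axes) of *Ccl2*, *Ccl7* and *Ccl21a* in the other LECs (left of each panel) and the Ptx3 LECs (right) of each mouse, joined by a line (blue squares, controls; red circles, mutants). *Ccl2* runs in both directions between mice, and mutant 5 stands lowest for *Ccl21a* in both classes.

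Between genotypes, 0 of 7 ligands rose and 1 fell (*Cxcl12*) in Ptx3 LECs, where 3.05% of all genes rose and 2.04% fell. As for all LECs, whether the *Cxcl12* reads are expression or background was not tested. The *Cxcl12* levels were 411 and 66.4 CPM in controls and 34.7, 49.3, 59.2, 42.5 and 25.4 CPM in mutants, and control 1, with 12 such cells, set the size of the fold change (-2.56 ± 0.58, adjusted p = 0.0423, edgeR). Without control 1 it was -0.57 (adjusted p = 0.486), within a range of 0.000769 to 0.955 over 17 alternatives, and without cells carrying markers of other cell types, a fit that drops control 1, it was -0.07 (adjusted p = 0.955). The *Ccl2* fold change in Ptx3 LECs, 3.25 ± 1.12, was not called (adjusted p = 0.124, edgeR), and passed without control 2 (8.44, adjusted p = 0.00816) within a range of 0.00622 to 0.384. In the other LECs, 0 of 9 ligands were called by edgeR, where 0.0375% of all genes rose and 0.0161% fell. An unadjusted p under 0.05 (edgeR) was reached by 5 of the ligands and by 2538 of all 18665 genes. DESeq2, which called more genes in all (closing section), called 3 of the ligands. The *Ccl2* fold change there was 3.52 ± 1.45 (adjusted p = 0.338, edgeR) and that of *Ccl7* was 3.62 ± 0.73 (adjusted p = 0.106, edgeR). Whether the Ptx3 contrast differed between genotypes was tested for 10 ligands and called for 0, against 0.0101% of all genes in each direction. An unadjusted p under 0.05 (edgeR) was reached by 1 of the ligands and by 2417 of all 19764 genes. DESeq2, which again called more genes in all, called 1 of the ligands.

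Other states of the LECs were compared as counts of mice. In the 5 mutant mice, cells in which 3 or more of 7 cell-cycle genes were detected had a *Ccl2* read more often than the other LECs in 5 of 5 mice (means 43.8% and 23.0% of thinned cells), and *Ccl21a* was lower in 5 of 5 (means 625 and 817 CPM). Among LECs under the *Ptx3* limit, those with at least 100 CPM of the glucose transporter *Slc2a1* had less *Ccl21a* in 7 of 7 mice (means 639.9 and 868 CPM) and more *Ccl2* in 6 of 7 (means 103 and 33.2 CPM). Among Ptx3 LECs the same split gave more *Ccl2* in 2 of 6 mice (means 59.9 and 79.1 CPM) and less *Ccl21a* in 5 of 6 (means 738 and 869 CPM). These splits were not tested further.

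*Ccl2* and *Ccl7* were often found in the same cells. In pooled mutant LECs, 24.6% of the 386 cells with a *Ccl2* read also had a *Ccl7* read, in comparison with 4.46% of the 897 cells without. Seen from *Ccl7*, 95 of its 135 positive cells (70.4%) were positive for *Ccl2*. *Cxcl12* was found in 49.0% of LECs with and 47.0% without a *Ccl2* read. These cells share mice and plates, and their shares are descriptions. Setting aside *Ccl21a* and *Cxcl12*, a read of at least 1 of the other 8 ligands was found in 18.6% and 12% of control LECs and in 30.5% to 65.1% of mutant LECs, and reads of at least 2 in 1.09% and 0.571%, and in 5.88% to 21.8%.

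BECs were divided by marker lists into cells with arterial markers (*Gja4*, *Gja5*, *Sema3g*, *Hey1*), cells with venous markers (*Ackr1*, *Selp*, *Sele*, *Vcam1*) and cells with neither list at 100 CPM. This division was added after other values were seen, and the arterial list is no mark of BECs as such, since it summed to 271 to 757 CPM in LECs. The makeup by these lists differed between the genotypes. Over all BECs the venous list summed to 276 to 402 CPM in controls and 908 to 1309 CPM in mutants. The arterial list summed to 488 to 621 CPM in controls and 176 to 397 CPM in mutants. Whether the kinds of cells differed or the cells changed their marker levels was not tested. Arterial cells were 32.1% and 36.3% of control BECs and 13.6% to 21.5% of mutant BECs, and venous cells were 19.5% and 14.0% of control BECs and 43.7% to 57.9% of mutant BECs (exact permutation p = 0.0952 for each, the smallest possible). *Cxcl12* was higher in arterial than in venous cells in 7 of 7 mice (means 3676 and 748 CPM), as was *Cx3cl1* (204 and 88.1 CPM), whereas *Cxcl16* was higher in venous cells in 7 of 7 mice (63.9 and 10.4 CPM). Each of these had an exact sign-flip p of 0.0156, the smallest possible, among 10 ligands tested.

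Within the arterial cells *Cxcl12* measured 3636 and 4468 CPM in controls and 4274, 3566, 3685, 3326 and 2780 CPM in mutants, which overlapped (exact permutation p = 0.286). Within the venous cells it measured 1222 and 1644 CPM in controls and 446, 495, 558, 429 and 440.4 CPM in mutants, and within cells of neither list 4281 and 3867 CPM in controls and 1402 to 2825 CPM in mutants (exact permutation p = 0.0952 for both). The lower *Cxcl12* of mutant BECs was seen together with fewer cells in the arterial class by these markers. Genotypes were not separated within that class and were fully separated in the others. In venous cells *Cx3cl1* measured 36.0 and 2.19 CPM in controls and 91.3, 93.8, 105, 130.0 and 158 CPM in mutants, on 31 and 22 control cells (exact permutation p = 0.0952). *Ccl2* of mutant BECs measured 61.0, 32.0, 14.2, 6.68 and 113 CPM in cells of neither list, 5.28, 3.42, 0.397, 16.9 and 9.62 CPM in venous cells and at most 4.40 CPM in arterial cells. These levels can rest on 1 cell, since the top cell held 23.3% to 73.9% of a mutant mouse's BEC reads, and the mean shares of cells with a read were alike, at 9.92% in cells of neither list and 9.86% in venous cells. No order of the classes is read from them. *Cxcl10* of mutant BECs was at 0.591, 14.3, 2.08, 22.9 and 1.69 CPM in venous cells and at most 0.0946 CPM in arterial cells.

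**Figure D4:**
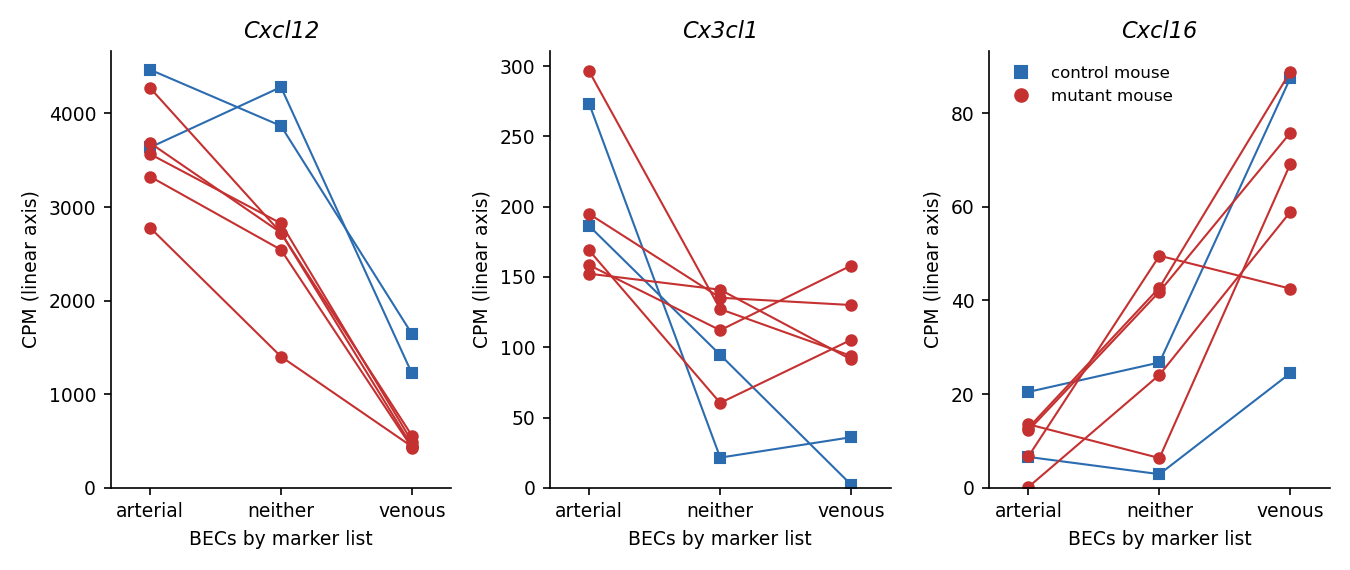
CPM (linear axes) of *Cxcl12*, *Cx3cl1* and *Cxcl16* in BECs with arterial markers, with neither and with venous markers, each line being 1 mouse (blue squares, controls; red circles, mutants). *Cxcl12* and *Cx3cl1* are higher in arterial than in venous cells and *Cxcl16* is lower, in 7 of 7 mice.

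Genes that receive or process chemokines were taken from lists of 23 receptors and 13 processing genes. The lists were chosen with earlier results of these data known, so counts from them are descriptions. *Ackr2* had been reported by the study as enriched in its *Ptx3*-high LECs. Among 13 receptors tested between LECs and BECs, 3 were higher in LECs and 3 in BECs, in comparison with 13.2% and 12.7% of all genes. The scavenging receptors *Ackr2* (log2 difference 5.27 ± 0.48, adjusted p = 4.90e-05) and *Ackr3*, which removes CXCL12 (1.64 ± 0.15, adjusted p = 4.44e-05), were higher in LECs, and *Ackr1*, which presents chemokines on venules, was higher in BECs (-6.78 ± 0.40, adjusted p = 5.20e-06, edgeR). *Ackr2* measured 386 and 194 CPM in control LECs and 304, 471, 643, 601 and 910.1 CPM in mutant LECs, which overlapped. It was higher in Ptx3 than in other LECs (log2 difference 0.93 ± 0.18, adjusted p = 0.0266, edgeR), the only receptor of 8 called there, where 1.16% of all genes were higher. Between genotypes, *Ccr10* was the 1 receptor of 15 called in BECs, where 1.51% of all genes rose, with 2.63 to 5.49 CPM in mutants and 0 reads in controls, at least 124-fold higher with 3 reads over the group as the floor (adjusted p = 0.0101, edgeR). In LECs 0 of 13 receptors were called between genotypes by edgeR, with 3 at an unadjusted p under 0.05, as were 3963 of all 19758 genes.

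The matrix metalloproteinases that trim several chemokines were the processing genes that rose in both classes. *Mmp2* measured 219 and 185 CPM in control BECs and 1384 to 1660.1 CPM in mutant BECs (log2 fold change 2.95 ± 0.15, adjusted p = 0.000534, edgeR), and 222 and 234 CPM in control LECs and 386 to 649 CPM in mutant LECs (1.23 ± 0.20, adjusted p = 0.0241). *Mmp14* rose by 1.37 ± 0.26 in BECs (adjusted p = 0.0377) and 1.28 ± 0.24 in LECs (adjusted p = 0.0365, edgeR). These were the 2 of 13 processing genes called between genotypes in each class, where 1.96% of all genes rose in LECs and 1.51% in BECs. Both were also higher in Ptx3 than in other LECs, by 1.26 ± 0.12 for *Mmp2* (adjusted p = 0.00268) and 0.88 ± 0.12 for *Mmp14* (adjusted p = 0.00643, edgeR). In Ptx3 LECs, 3 of 13 rose in mutants in comparison with 3.05% of all genes, namely *Mmp14* (0.89 ± 0.16, adjusted p = 0.0205), *Mmp2* (0.83 ± 0.19, adjusted p = 0.0453) and *Adam17*, a protease that sheds fractalkine and CXCL16 (1.05 ± 0.23, adjusted p = 0.0351, edgeR). The study had reported these genes as upregulated in mutant *Ptx3*-positive LECs of the same data. The processing list was chosen with earlier results known, so counts from it are descriptions and no independent support. Between LECs and BECs, 6 of 13 were higher in LECs, led by *Mmp14* (1.19 ± 0.10), the heparan sulfate carrier *Sdc1* (1.71 ± 0.17) and the sheddase *Adam10* (0.61 ± 0.08, adjusted p = 0.00036, edgeR), and 2 were lower, in comparison with 13.2% of all genes higher and 12.7% lower, so that the share of lower genes was near the background. Of 30 other chemokine ligand genes, 16 were tested in LECs and 11 in BECs between genotypes and 0 were called by edgeR. An unadjusted p under 0.05 (edgeR) was reached by 2 and 1 of them, and by 3963 of all 19758 genes in LECs and 3793 of 19315 in BECs. *Cxcl17* was the 1 of 8 called between LECs and BECs (5.21 ± 1.06, adjusted p = 0.00574, with 13.2% of all genes higher) and the 1 of 7 called in the Ptx3 contrast, where it was lower in Ptx3 LECs (-4.11 ± 0.70, adjusted p = 0.0168, edgeR, with 1.57% of all genes lower).

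Across LECs, the genes most like each ligand were ranked by the median over mice of the Spearman correlation within a mouse, among 9673 genes and 1641 cells, as a description of cells that share plates and depth. *Ccl7* was most like *Ccl2* (median 0.335 over 7 mice), followed by *2310002F09Rik* (0.223) and *Plau* (0.206). *Ccl2* was most like *3300005D01Rik* (0.332) and *Cd34* (0.323), a sialomucin at 29.4 to 70.2 CPM in control LECs and 355 to 624 CPM in mutant LECs, followed by *2310002F09Rik* (0.319 over 5 mice). These medians hide a spread over mice. *Ccl2* with *Cd34* ran from -0.096 to 0.502 and *Ccl7* with *Plau* from -0.039 to 0.294, whereas *Ccl7* with *Ccl2* stayed at 0.185 to 0.439. *Ccl21a* was most like its copy *Gm21541* (0.681), with which it can share reads, then *CT010467.1* (0.604) and *AY036118* (0.596). The last of these was also first for *Cxcl12* (0.239), and *Cx3cl1*, *Cxcl1*, *Cxcl9*, *Cxcl10* and *Cxcl16* stayed at 0.160 or less.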

How the data were processed

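Single cells of ear skin were sorted into 384-well plates and sequenced by Smart-Seq2. The authors aligned reads with TopHat2 2.1.1 to GRCm38, removed duplicates with SAMtools 0.1.18 and deposited raw counts per gene (featureCounts), 1 table per plate; the annotation version and strand setting are not given in the sources used here. Wells were kept from 200 genes and 50000 reads upwards if no more than 10% of reads were mitochondrial (3248 of 3456); 92 spike-in rows were left out of all totals. Plates of one mouse were combined, and counts were summed per mouse and class (LECs 55616045 to 194353210 reads, BECs 38402388 to 99630824). Genotypes and classes were compared with edgeR 4.0.16 (quasi-likelihood, Benjamini-Hochberg over all genes tested, R 4.3.3), with mouse as a block within mice, since both classes came from the same animal (correlation of deviations 0.077 to 0.440 over 7 mice). Shares used cells thinned to 50000 reads with Wilson 95% intervals, and exact permutations over mice (21 splits) or sign flips (128). Intervals and floors (3 reads) cover counting error only. On simulated counts for mutant against control LECs (19758 genes), 56 of 100 genes changed 2-fold and 100 of 100 changed 4-fold were recovered. The simulation gave every gene the same spread, placed no reads in single cells and left genes of low level unchanged. It checks the code and does not show that such changes would be found in the ligands. DESeq2 1.42.0 and other alternatives are given in the closing section. Named genes were the 10 ligands, the called genes of the receptor, processing and other-ligand lists (at most 3 per list and comparison) and the 3 genes most like each ligand. The members and lists were chosen with earlier results of these data known. Each mouse is 1 replicate, and p-values measure the spread between these mice.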

Additional observations from a re-analysis of the deposited data

Results flagged for a closer look

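Of 40 groups of 5 mutant mice tested for a mouse apart from the rest, 6 passed Dixon's limit of 0.71, where chance flags about 1 in 20. Mutant 5 had the highest *Ccl2* in other LECs, at 168.9 CPM against 63.15 CPM in the next mouse, the lowest *Ccl21a* in LECs, at 472.9 CPM against 792 CPM, and the highest *Cxcl1* in BECs, at 35.94 CPM against 5.078 CPM. Mutant 1 had the highest *Ccl21a* in BECs, at 272.4 CPM against 76.32 CPM. Mutant 4 had the highest *Cxcl10* in Ptx3 LECs, at 11.07 CPM against 0.0867 CPM, with 89.0% of the reads in a single cell, and the highest *Cxcl16* there, at 4.615 CPM against 2.385 CPM.

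The mutant effect on *Mmp2* was smaller in LECs than in BECs by the test of the difference itself (log2 difference -1.766, adjusted p = 0.0425, edgeR). Cells in neither class, which enter no comparison, held *Ccl2* at 0.702 CPM or more in the 5 mutant mice and at 0.133 and 0.116 CPM in the controls.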

How the results depend on the processing

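Of 990 alternatives for the ligands' fold changes, 863 kept direction and side of the threshold, 40 lost the call, 22 gained it and 65 changed sign, 0 of them of a called value; the causes were not tested.

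In the counts that follow, the LEC to BEC difference is the difference of the mutant effect between LECs and BECs. The Ptx3 difference is the difference of the Ptx3 contrast between genotypes. With DESeq2 the ligands called were 4 in LECs, 5 in BECs, 2 in Ptx3 LECs, 3 in other LECs, 2 for the LEC to BEC difference and 1 for the Ptx3 difference, and the genes called were 2472, 2238, 2925, 1185, 1240 and 1344, with 1732 in the Ptx3 contrast (main 546, 410, 853, 10, 41, 4 and 430). Thinned cells gave 0 ligands in LECs and 1 in BECs, and the stricter gate 1 in BECs. Without cycling cells 0 ligands were called in LECs and 0 in Ptx3 LECs, and 82, 279 and 0 genes in LECs, Ptx3 LECs and other LECs. Without cells carrying other markers, 0 ligands were called in Ptx3 LECs, and 757 and 29 genes in BECs and other LECs. With plate series as a block, 2, 1 and 0 ligands and 178, 54 and 24 genes were called in LECs, BECs and Ptx3 LECs, and 1 gene in other LECs. A *Ptx3* limit of 300 CPM gave 1 ligand in the Ptx3 contrast and 136 genes in other LECs. The Ptx3 contrast called 1098 genes in mutant mice alone, 48 in control mice alone and 130 with no replicate block, and LECs against BECs called 2 ligands and 648 genes in control mice alone. The *Ccl2* share difference between Ptx3 and other LECs passed at 2 reads (9.80 points) and at 100000 reads (7.71 points).

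Replicate numbers shared by mutant and control mice did not pair them (correlations -0.054 to 0.030 in LECs and 0.028 to 0.126 in BECs, 2 numbers). With this replicate block, 0 ligands were called in LECs, BECs or Ptx3 LECs, and 3, 0, 29 and 0 genes in LECs, BECs, Ptx3 LECs and other LECs.

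In the Ptx3 contrast, *Ccl2* changed sign without control 2 (-0.027) and at 300 CPM (-0.20), *Ccl7* without control 2 (-0.37), without mutant 2 (-0.04), in mutant mice alone (-0.11) and at 300 CPM (-1.66), and *Cxcl12* with no replicate block (0.32) and in control mice alone (0.49). Over the mice left out in turn, these contrasts reached 1.01 for *Ccl2* and 0.41 for *Ccl7*, both without control 1. The difference of the *Cxcl12* mutant effect between LECs and BECs ran from -1.10 without control 2 to 0.81 without control 1. The LEC to BEC contrast of *Cxcl12* within mice stayed between -5.09 and -4.75 over 16 alternatives. For *Ccl2*, the difference of the Ptx3 contrast between genotypes ran from -7.63 without control 1 to 6.01 without control 2.

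Leaving out each mouse in turn, ligands called ranged from 0 to 1 in LECs, 0 to 2 in BECs, 0 to 4 in Ptx3 LECs and 7 to 7 for LECs against BECs, and stayed at 0 elsewhere. Genes called ranged from 153 to 546 in LECs, 159 to 586 in BECs, 288 to 4335 in Ptx3 LECs (4335 without control 2), 0 to 10 in other LECs, 166 to 834 in the Ptx3 contrast, 3718 to 4396 for LECs against BECs, 0 to 20 for the LEC to BEC difference and 1 to 1965 for the Ptx3 difference. The *Ccl2* share differences ranged from 18.6 to 27.7 points between genotypes, 7.04 to 11.9 between Ptx3 and other LECs and 9.61 to 14.9 between LECs and BECs.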

Other observations

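The 2 plates of 1 mouse differed for *Ccl2*. LECs of mutant 3 gave 83.2 and 41.3 CPM and those of mutant 5 gave 164 and 146 CPM, whereas BECs gave 7.50 and 0.681 CPM in mutant 3 and 58.8 and 9.01 CPM in mutant 5.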
